A study of Mus musculus with 8 samples.

Results

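Expression of 10 genes of MHC class I presentation was followed in 8 RNA-seq libraries of mouse Treg cells, the regulatory CD4+ T cells that depend on the transcription factor Foxp3. The genes were taken by name, and all 10 were found among the 53465 gene identifiers of the deposited FPKM tables. They were the class I heavy chains H2-K1 and H2-D1, the light chain B2m, the peptide transporter subunits Tap1 and Tap2, the loading factor Tapbp (tapasin), the immunoproteasome subunits Psmb8, Psmb9 and Psmb10, and the transactivator Nlrc5. FPKM is the number of sequenced fragments per kilobase of exon, scaled to library size, so that levels of different genes are per length.

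The study asked how loss and restoration of the chromatin remodeler Brg1 (gene symbol Smarca4) affected Treg cells. Every library is labelled as coming from R26CAG-FlpoER C57BL/6 mice aged 3 to 4 weeks, from spleen and lymph nodes. Each condition has 1 library, from 100000 sorted cells. FlpoER is a recombinase that tamoxifen (TAM) activates in every tissue, and Cre was driven from the X-linked Foxp3 locus, so that Brg1 was deleted in cells that express Foxp3. WT Treg cells were BrgF/+ with Foxp3YFP-Cre/+. In mosaic females, both Treg subsets were BrgF/ΔR, where F is the floxed allele and ΔR a reversible gene trap. Their Brg1-sufficient cells are labelled Foxp3+/+ and their Brg1-deleted cells Foxp3YFP-Cre. In a mosaic female, Treg cells with and without Cre developed in the same animal. Per the study, the sufficient subset was YFP− and the deleted subset YFP+, so these libraries came from different gates. Mice called rKO1 are labelled BrgF/deltaR with Foxp3YFP-Cre/YFP-Cre and were inflamed. Their Brg1-deleted Treg cells were taken without treatment or on day 7 after TAM, and their Brg1-reexpressed Treg cells, labelled BrgF/+, were taken on day 7 after TAM. A separate experiment held aTreg cells, the CD44hi CD62Llo Treg subset, from TAM-treated rKO1 mice. One aTreg library is titled Brg1-deleted, described as BrgF/F and headed WT in its table, and the other is titled Brg1-reexpressed and described as BrgF/+. Per the study, mice with ΔR were made on a mixed background and backcrossed to C57BL/6 for 3 generations. The WT library is labelled without ΔR, so that the background may differ between libraries. The number of mice behind a library is not given in the sources used here.

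Nucleated cells display peptides cut from their own proteins on class I molecules, each made of a heavy chain and B2m. In cells that respond to interferon, the immunoproteasome subunits replace the constitutive catalytic subunits Psmb5, Psmb6 and Psmb7 and change the cleavage pattern, and the Tap1 and Tap2 heterodimer pumps the peptides into the endoplasmic reticulum. Tapasin holds the empty class I molecule at this pump until a peptide binds. Nlrc5 enters the nucleus and activates class I, B2m, Tap1 and Psmb9 promoters together with RFX, CREB/ATF and NF-Y factors on a block of sites named S, X and Y. Lymphocytes hold high class I levels, which protect them from natural killer cells.

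The genes sat close together on the genome. On GRCm38, 7 of them lay in the MHC of chromosome 17. H2-K1 was at chr17:33996017-34000347, Tapbp at chr17:33915899-33929292, Psmb9 at chr17:34181987-34187764, Tap1 at chr17:34187553-34197225, Psmb8 at chr17:34197721-34201454, Tap2 at chr17:34203527-34216321 and H2-D1 at chr17:35262730-35267499. B2m was at chr2:122147686-122153083, Psmb10 at chr8:105935735-105938444 and Nlrc5 at chr8:94434356-94527272. Tap1 and Psmb9 lie head to head and their exons overlap by 212 bases. Exons of Tap2, Tapbp and Psmb8 overlapped Gm15821, Gm19412 and Gm20496 over 18.5%, 29.0% and 14.7% of their length. The strand setting of the counting is not given in the sources used here, so that overlapping genes may share reads. H2-K1, H2-D1 and the other class I heavy chains are close paralogs, and reads may also have been split among them.

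The upstream sequences of the genes that Nlrc5 is known to act on are shown because Nlrc5 and B2m went in opposite directions below. This did not hold for every such gene. Over the 6 total Treg libraries, Pearson's r with Nlrc5 was −0.89 for B2m, −0.77 for H2-D1 and −0.53 for H2-K1. It was −0.03 for Psmb9 and 0.41 for Tap1. RefSeq promoters on GRCm38.p6 were found for 8 of the 10 genes, and the 250 bases before each start were searched on both strands. Capitals mark TGACG, the core of a CREB/ATF site as in the X2 box, CCAAT or its complement ATTGG, the NF-Y site or Y box, and the core of an interferon-stimulated response element (ISRE), GAAA, any 2 bases and GAAA. Each is written 5′ to 3′ on the strand of the gene, and the last on the strand of Tap1.
B2m, chr2:122147437-122147686, plus strand: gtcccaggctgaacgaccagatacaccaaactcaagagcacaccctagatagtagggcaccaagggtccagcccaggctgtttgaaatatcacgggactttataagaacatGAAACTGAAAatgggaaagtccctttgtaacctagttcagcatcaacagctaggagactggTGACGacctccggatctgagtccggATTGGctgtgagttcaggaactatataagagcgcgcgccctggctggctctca
H2-D1, chr17:35262844-35263093, plus strand: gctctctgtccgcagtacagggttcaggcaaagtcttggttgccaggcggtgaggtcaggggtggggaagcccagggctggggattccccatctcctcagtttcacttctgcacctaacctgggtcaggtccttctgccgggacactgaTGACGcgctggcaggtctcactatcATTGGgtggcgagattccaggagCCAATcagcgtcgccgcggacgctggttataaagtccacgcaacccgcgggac
H2-K1, chr17:34000348-34000597, minus strand: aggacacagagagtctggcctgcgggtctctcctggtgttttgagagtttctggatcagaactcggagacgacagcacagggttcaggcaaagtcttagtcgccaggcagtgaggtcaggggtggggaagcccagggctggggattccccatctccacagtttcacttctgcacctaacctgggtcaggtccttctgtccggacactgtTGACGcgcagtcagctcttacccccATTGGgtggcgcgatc
Tap1 and Psmb9, chr17:34187331-34187555, plus strand: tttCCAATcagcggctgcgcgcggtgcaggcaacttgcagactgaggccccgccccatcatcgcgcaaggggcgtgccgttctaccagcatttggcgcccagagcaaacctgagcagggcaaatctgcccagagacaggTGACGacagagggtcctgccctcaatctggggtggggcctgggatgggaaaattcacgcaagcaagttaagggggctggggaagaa

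In B2m, H2-D1 and H2-K1, a TGACG was followed after 20 bases by ATTGG. This spacing was chosen after the matches were seen. It occurred in 30 of 32851 mouse promoter windows (0.0913%) of 26 genes, and these include the 3 genes it was picked from. Other spacings from 5 to 40 bases were found in 2 windows (8 or 11 bases) to 28 windows (12 bases). A TGACG anywhere was in 17.8% of windows and a CCAAT in 33.8%, which is no background for a spaced pair. Another of the 26 genes, named after the list was seen, was H2-M3, a nonclassical class I heavy chain. The stretch shared by Tap1 and Psmb9 held a CCAAT 4 bases before the Psmb9 start and a TGACG 86 bases before the Tap1 start. B2m was the only one of the 8 genes with this exact ISRE core, which was present in 2.98% of windows. Other forms of the element were not searched, so a window without this string may still hold one. Psmb8 alone held TTCNNNGAA, the gamma-activated site, as TTCCCAGAA, present in 7.02% of windows. The Tapbp window held CCAAT only, on its other strand, and the Psmb10 window had none of these letters. A match here is a description of the letters and does not show binding.

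Before the genes are compared, the libraries need a check. Smarca4 was at 14.8 FPKM in WT, 12.1 in mosaic Brg1-sufficient and 9.52 in rKO1 Brg1-reexpressed Treg cells, above the 7.44, 7.34 and 6.13 FPKM of the mosaic, untreated and TAM-treated Brg1-deleted libraries. In aTreg cells it was at 11.1 FPKM in the library labelled Brg1-deleted and at 9.02 in the library labelled Brg1-reexpressed, against the direction of the labels. All directions in aTreg cells below rest on those labels. Foxp3 ranged from 20.01 FPKM in WT to 137 in mosaic Brg1-sufficient cells and was at 20.8 and 13.4 FPKM in the aTreg libraries. The 6 Treg markers summed to between 282 and 510 FPKM in the total Treg libraries. In aTreg cells they summed to 491 FPKM in the library labelled Brg1-deleted and 320 in that labelled Brg1-reexpressed. The reads recovered on genes numbered 16299558 to 24056859 in a library. With 1 library per condition no test of a condition can be made, and every interval below is a 95% exact binomial interval that covers counting error only. In bulk RNA, fewer cells with a transcript and less transcript per cell cannot be told apart.

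Class I genes were among the most abundant transcripts of these cells. B2m was at 17112 FPKM in WT, 12272 in mosaic Brg1-sufficient, 10444 in mosaic Brg1-deleted, 8012 in untreated rKO1, 10886 in TAM-treated Brg1-deleted and 15125 in Brg1-reexpressed Treg cells. All 3 Brg1-sufficient libraries thus lay above all 3 Brg1-deleted libraries. H2-D1 was at 3206, 3941, 3256, 2587, 2638 and 3785 FPKM in the same order. H2-K1 was at 2523, 3231, 3054, 1707, 1975 and 2233 FPKM, highest in both mosaic libraries and lowest in the 3 rKO1 libraries. Together, B2m, H2-K1 and H2-D1 took between 1.96% and 2.64% of all reads on genes in a total Treg library. All 10 genes took from 2.37% in untreated rKO1 cells to 2.93% in WT cells.

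The peptide loading genes were expressed far lower per length than the class I chains. Tap1 was at 49.1 FPKM in WT, 42.9 in mosaic Brg1-sufficient, 44.0 in mosaic Brg1-deleted, 74.2 in untreated rKO1, 46.7 in TAM-treated Brg1-deleted and 61.2 in Brg1-reexpressed cells. Untreated rKO1 cells stood highest. Tap2 was at 50.2, 50.2, 50.8, 53.1, 46.9 and 52.8 FPKM in this order, a range of 1.13-fold and the narrowest of the 10 genes. Tapbp was at 124, 127, 116, 103, 91.5 and 130 FPKM, so that the 3 Brg1-sufficient libraries again lay above the 3 Brg1-deleted ones.

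The immunoproteasome subunits followed another order. Psmb8 (the subunit LMP7) was at 559 FPKM in WT, 415 in mosaic Brg1-sufficient, 404 in mosaic Brg1-deleted, 418 in untreated rKO1, 431 in TAM-treated Brg1-deleted and 602 in Brg1-reexpressed cells. Psmb9 (LMP2) was at 218, 196, 187, 261, 219 and 328 FPKM in this order. Psmb10 (MECL-1) was at 399, 266, 251, 350, 356 and 417 FPKM. All 3 subunits were lowest in the mosaic Brg1-deleted library, next lowest in the mosaic Brg1-sufficient library and highest in the Brg1-reexpressed library.

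Nlrc5 was the least abundant of the 10 genes and the one with the widest range, 2.53-fold. Its level was 8.95 FPKM (1154 reads) in WT, 8.90 (1574 reads) in mosaic Brg1-sufficient and 10.2 (1373 reads) in Brg1-reexpressed cells. In Brg1-deleted cells it was at 18.1 FPKM (3652 reads) in the mosaic, 22.5 (3388 reads) in the untreated rKO1 and 15.8 (2229 reads) in the TAM-treated rKO1 library. The lowest Brg1-deleted library lay 1.54-fold above the highest Brg1-sufficient one.

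**Figure D1:**
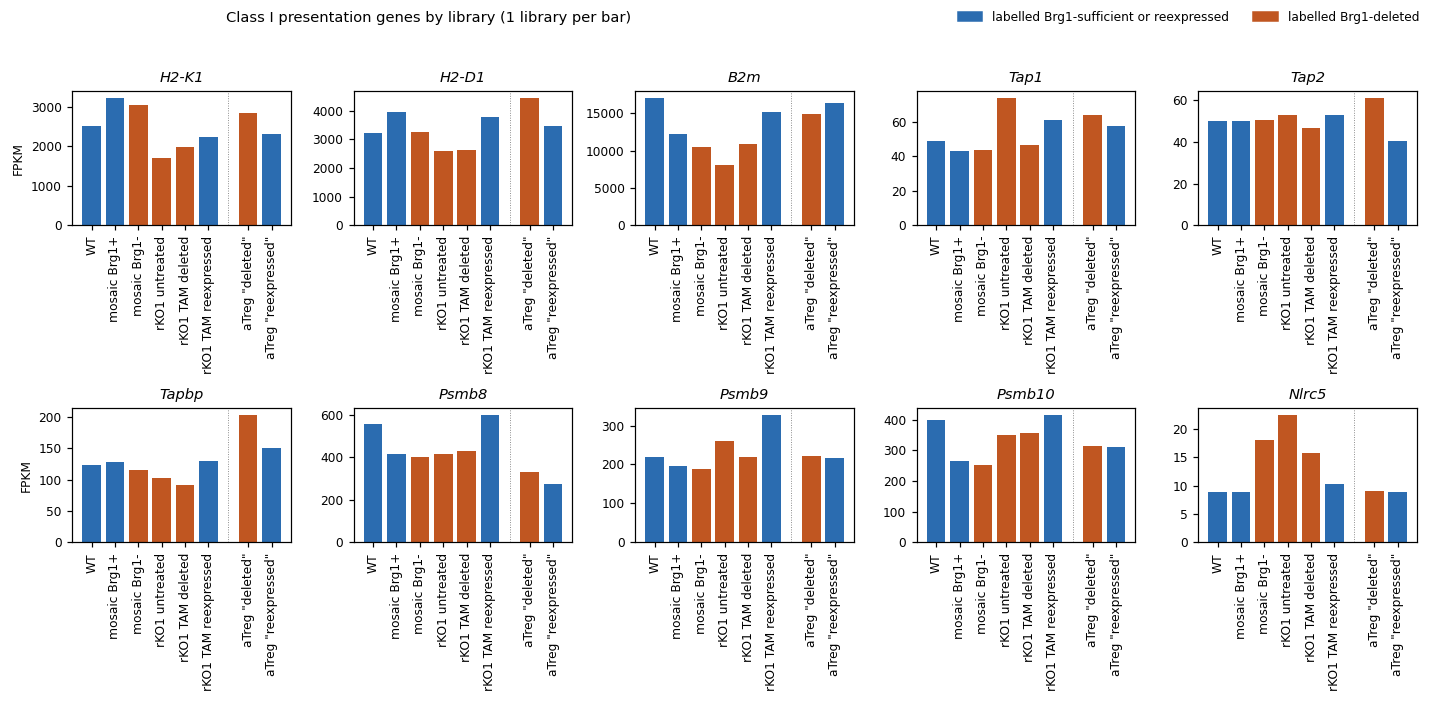
FPKM (vertical axis, from 0) of the 10 genes in the 6 total Treg libraries and, right of the dotted line, the 2 aTreg libraries. Each bar is 1 library, blue where labelled Brg1-sufficient or reexpressed and orange where labelled Brg1-deleted, and there are no error bars because each condition has 1 library. Nlrc5 is higher in the 3 orange total Treg bars (15.8 to 22.5 FPKM) than in the 3 blue ones (8.90 to 10.2 FPKM), while B2m shows the opposite order.

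In mosaic females, where deleted and sufficient cells coexist, Nlrc5 was the single gene of the 10 that differed 2-fold or more. It was 2.03-fold lower in Brg1-sufficient than in Brg1-deleted cells (interval 1.91 to 2.16), a log2 difference of −1.01 on the log2(FPKM + 0.1) scale. With a pseudocount of 1 or with the trend with exon length removed it was −0.95 or −0.94, under 2-fold. Of the 12286 genes with at least 1 FPKM in either library, 10.9% differed that much and 5.39% in this direction, so 1 of 10 is close to the background. The other 9 genes lay within 1.21-fold. H2-D1 was 1.21-fold higher in Brg1-sufficient cells (1.20 to 1.22), B2m 1.18-fold (1.17 to 1.18) and Tapbp 1.10-fold (1.07 to 1.14). Values for H2-K1, Psmb8, Psmb9 and Psmb10 were 1.03-fold to 1.06-fold higher, and these 4 turned to lower values when the reads were scaled by their total. For Tap1 and Tap2 the intervals included 1. The median log2 difference of the 10 genes was 0.07, against 0.0096 over all genes tested.

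In inflamed rKO1 mice on day 7 after TAM, none of the 10 genes differed 2-fold between Brg1-reexpressed and Brg1-deleted cells, against 17.8% of 12591 genes. Most still pointed one way. Class I chains, loading genes and immunoproteasome subunits, 9 of 10 genes, had higher values in Brg1-reexpressed cells, and Nlrc5 had a lower one. Psmb9 was 1.49-fold higher (1.46 to 1.53), H2-D1 1.44-fold (1.42 to 1.45), Tapbp 1.43-fold (1.37 to 1.48), Psmb8 1.40-fold (1.37 to 1.43), B2m 1.39-fold (1.38 to 1.40) and Tap1 1.31-fold (1.26 to 1.36). Smaller differences were seen for Psmb10 at 1.17-fold, H2-K1 at 1.13-fold and Tap2 at 1.13-fold. Nlrc5 was 1.54-fold lower in Brg1-reexpressed cells (1.44 to 1.65). The median log2 difference of the 10 genes was 0.43, against 0.0060 over all genes tested. The median of all genes moved by −0.31 when the reads were scaled by their total, and the signs of H2-K1, Psmb10 and Tap2 then turned, while the other 7 genes kept theirs. Genes of up to 1070 exon bases had a median log2 difference of 0.19 and those of at least 6370 exon bases −0.17. B2m has 860 and Nlrc5 8493 exon bases, and after this trend was removed their log2 differences were 0.32 and −0.49.

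**Figure D2:**
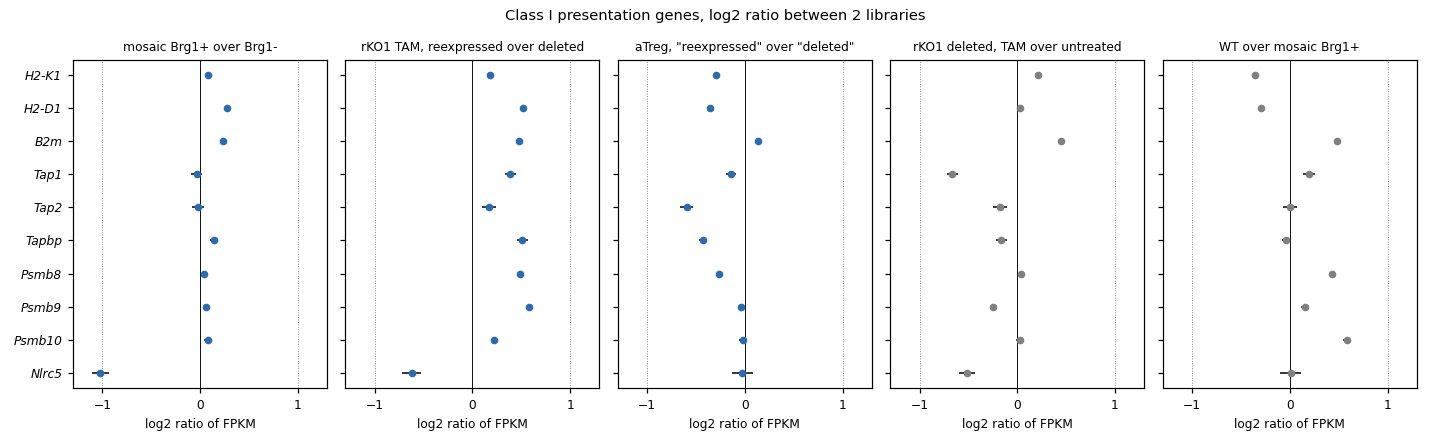
Log2 ratio of FPKM (horizontal axis) of each gene in 5 pairs of libraries, the first named over the second, with bars for the 95% counting interval and dotted lines at 2-fold. The 3 blue panels compare libraries labelled Brg1-sufficient or reexpressed with Brg1-deleted ones. The 2 grey panels compare libraries with the same Brg1 label, where B2m and Psmb10 in WT over mosaic cells, and Tap1 in treated over untreated cells, differ at least as much as in the blue panels.

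Libraries of the same Brg1 label differed too. They are different conditions and not repeats, so that these differences are not a measure of library noise. WT and mosaic Brg1-sufficient cells differed in genotype and gate, and the Brg1-deleted rKO1 libraries differed in TAM. Xist, a transcript of female cells, was at 0.0315 FPKM in the untreated and 3.13 FPKM in the TAM-treated Brg1-deleted rKO1 library. Ddx3y, which is Y-linked, was at 11.3 and 7.31 FPKM in them. Their sexes may thus differ, and the TAM-treated library held transcripts of both sexes. Between WT and mosaic Brg1-sufficient cells, both with Brg1, no gene of the 10 passed 2-fold, against 14.9% of all tested, yet Psmb10 was 1.502-fold higher in WT (1.46 to 1.54), B2m 1.39-fold (1.39 to 1.40) and Psmb8 1.35-fold (1.32 to 1.37). H2-K1 was 1.28-fold lower in WT. Nlrc5 showed no difference here, at 1.005-fold (0.931 to 1.08). Between TAM-treated and untreated Brg1-deleted rKO1 cells, again none of 10 passed against 11.0% of all. Tap1 was 1.59-fold lower after TAM (1.53 to 1.65), Nlrc5 1.43-fold lower (1.36 to 1.51) and B2m 1.36-fold higher (1.35 to 1.37). For 5 of the 10 genes, B2m, Psmb10, Tap1, Tap2 and H2-K1, the ratio of Brg1-reexpressed to Brg1-deleted rKO1 cells was thus no larger than the larger ratio between these libraries of 1 Brg1 label.

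Set against untreated and reference cells, the inflamed rKO1 mice had their own pattern. Compared with mosaic Brg1-deleted cells, untreated rKO1 cells had 1.79-fold less H2-K1 (1.77 to 1.80) and 1.69-fold more Tap1 (1.63 to 1.75). Psmb9 and Psmb10 were 1.39-fold and 1.40-fold higher, and none of the 10 passed 2-fold, against 20.5% of all. Against WT cells, untreated rKO1 cells passed 2-fold for Nlrc5, 2.52-fold higher (2.35 to 2.69), and for B2m, 2.14-fold lower (2.12 to 2.15). With reads scaled by their total, the log2 difference of B2m was −0.78, under 2-fold. The myeloid or dendritic markers summed to 329 FPKM in WT, 78.6 in untreated rKO1 and 92.3 in mosaic Brg1-sufficient cells. Most of this was Lyz2, at 313, 55.7 and 87.2 FPKM. Cd68, Csf1r and Adgre1 went the other way, at 11.0, 1.79 and 2.33 FPKM in WT and 14.2, 3.78 and 3.32 in untreated rKO1 cells. The part of these markers in the result was not tested. Nlrc5 and B2m were each 1 of 10 genes, against 12.5% of all genes tested 2-fold higher and 9.53% 2-fold lower. Brg1-reexpressed cells differed from WT cells by less than 2-fold for all 10 genes, against 21.9% of all tested, and the highest was Psmb9, 1.504-fold higher (1.47 to 1.54). Against mosaic Brg1-sufficient cells the 10 genes again stayed under 2-fold, against 25.0% of all tested, with Psmb9 1.67-fold and Psmb10 1.57-fold higher. Ddx3y, a Y-linked gene, was at 0 FPKM in the WT and mosaic libraries and at 5.59 to 11.3 FPKM in the 3 rKO1 libraries, which does not match a label with YFP-Cre on both copies of the X-linked Foxp3. Per the study, rKO1 mice were of either sex. Sex, inflammation and genotype cannot be told apart in the comparisons of rKO1 with WT or mosaic cells.

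Taken over the 6 total Treg libraries, 3 of the 10 genes divided the Brg1-sufficient from the Brg1-deleted libraries without overlap. Nlrc5 was higher in every Brg1-deleted library, with a mean log2 difference of −0.98 (sufficient minus deleted). B2m (12272 to 17112 against 8012 to 10886 FPKM) and Tapbp (124 to 130 against 91.5 to 116 FPKM) were higher in every Brg1-sufficient library. The background was 15.7% of 14040 genes either way, 8.21% higher in deleted and 7.49% higher in sufficient libraries, and 349 genes (2.49%) matched the direction of Nlrc5 with at least its mean difference. These libraries are different conditions and not replicates. Other measures divided them in the same way. The library total that the FPKM values imply was 0.817 to 0.906 times the recovered reads in Brg1-sufficient and 0.989 to 1.09 times in Brg1-deleted libraries. With reads scaled by their own total, B2m and Nlrc5 still divided the libraries and Tapbp did not. The 5 B cell markers summed to 285 to 716 FPKM in Brg1-sufficient and 86.8 to 215 FPKM in Brg1-deleted libraries, nearly all of it Ighm, whereas Ms4a1 stayed at or below 0.734 FPKM. Their part in the result was not tested.

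The ratio of B2m to Nlrc5 in a library does not depend on library scaling. Both genes already divided the total Treg libraries, in opposite directions, so their ratio had to divide them and is no separate result. B2m has 860 and Nlrc5 8493 exon bases, so the ratio is exposed to the trend with exon length. With that trend removed, the rKO1 TAM log2 differences went from 0.47 to 0.32 for B2m and from −0.62 to −0.49 for Nlrc5. In mosaic cells they went from 0.23 to 0.12 and from −1.01 to −0.94. The ratio was 1912 in WT, 1378 in mosaic Brg1-sufficient and 1477 in Brg1-reexpressed cells. In Brg1-deleted cells it was 578 in the mosaic, 356 in untreated rKO1 and 691 in TAM-treated rKO1 libraries. The ratio was 2.39-fold higher in sufficient than deleted mosaic cells and 2.14-fold higher in reexpressed than deleted rKO1 cells. In aTreg cells it was 1645 and 1845 in the libraries labelled Brg1-deleted and Brg1-reexpressed, 1.12-fold apart.

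**Figure D3:**
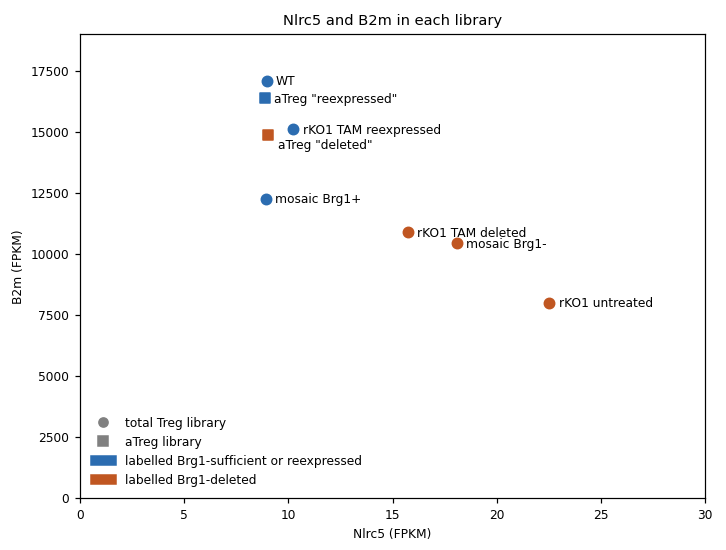
B2m (vertical axis, FPKM) against Nlrc5 (horizontal axis, FPKM) in each library, circles for total Treg and squares for aTreg libraries. The 3 total Treg libraries labelled Brg1-deleted (orange circles) lie to the right and low, at 15.8 to 22.5 FPKM of Nlrc5 and 8012 to 10886 FPKM of B2m, apart from the 3 Brg1-sufficient ones. Levels are not compared between the total Treg and the aTreg experiment.

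Immunoproteasome subunits can also be read against the constitutive subunits they replace. Psmb8 over Psmb5 ranged from 0.890 to 1.16 among total Treg libraries and Psmb9 over Psmb6 from 0.603 to 1.13. Psmb10 over Psmb7 ranged from 13.8 to 24.2 on the FPKM scale. Untreated rKO1 cells had the highest ratio for Psmb9 and for Psmb10. In mosaic cells, Psmb8 over Psmb5 and Psmb9 over Psmb6 were 0.768 and 0.781 times as high with Brg1 as without, and in rKO1 cells 1.13 and 1.18 times. Psmb5 and Psmb6 were 1.34-fold higher in sufficient mosaic cells, and 1.23-fold and 1.26-fold higher in reexpressed rKO1 cells. In the deposited FPKM, both were higher in every Brg1-sufficient total Treg library than in every Brg1-deleted one, with gaps of only 1.03-fold and 1.07-fold. For Psmb7 the groups overlapped. The background in this direction was 7.49% of 14040 genes. The divisions of Psmb5 and Psmb6 rest on the scaling. Their lowest Brg1-sufficient values were 466 and 303 FPKM (mosaic), and their highest Brg1-deleted values 452 and 285 FPKM (TAM-treated rKO1). Scaling by the total of reads multiplies the FPKM of these libraries by 0.906 and 1.01. With it, the groups overlapped for both genes. Psmb10 over Psmb7 was 1.13 times as high with Brg1 in mosaic and 0.861 times in rKO1 cells. Each of the 3 ratios thus went opposite ways in the 2 settings, and none differed as much as 2-fold.

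**Figure D4:**
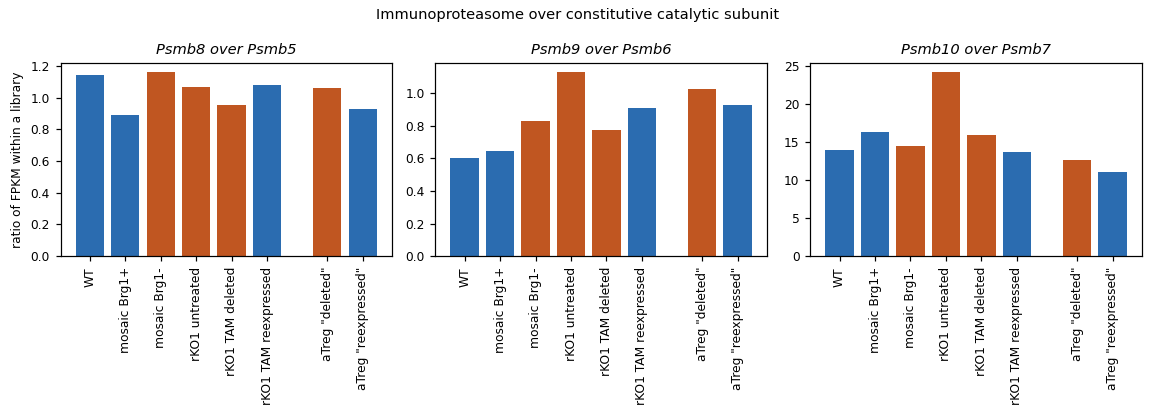
Ratio of FPKM (vertical axis, from 0) of each immunoproteasome subunit to the constitutive subunit it replaces, with 1 bar per library, blue where labelled Brg1-sufficient or reexpressed and orange where labelled Brg1-deleted. Untreated rKO1 cells have the highest Psmb9 over Psmb6 (1.13) and Psmb10 over Psmb7 (24.2).

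In aTreg cells the picture was different. From the library labelled Brg1-deleted to that labelled Brg1-reexpressed, H2-K1 went from 2848 to 2320 FPKM, H2-D1 from 4461 to 3481 and B2m from 14877 to 16379. Tap1 went from 63.9 to 57.9, Tap2 from 61.4 to 40.6 and Tapbp from 204 to 151 FPKM. Psmb8 went from 329 to 275, Psmb9 from 222 to 216, Psmb10 from 313 to 310 and Nlrc5 from 9.04 to 8.88 FPKM. None of the 10 genes reached 2-fold, against 10.7% of 11587 genes. Tap2 was 1.51-fold lower in the library labelled Brg1-reexpressed (1.44 to 1.59), Tapbp 1.35-fold (1.32 to 1.38), H2-D1 1.28-fold (1.27 to 1.29) and H2-K1 1.23-fold (1.22 to 1.24). B2m was 1.10-fold higher (1.09 to 1.11), a sign that turned once the trend with exon length was removed. Tap1, Psmb9 and Nlrc5 turned from negative to positive log2 differences in that setting, to 0.03, 0.06 and 0.18, as did Psmb9, Psmb10 and Nlrc5 with scaling by the median of ratios. Nlrc5, with 1341 and 1509 reads, was at 0.982-fold (0.912 to 1.06), so no difference was detectable at this depth. The median log2 difference was −0.20 against −0.07 over all genes tested. Xist was at 2.32 FPKM in the library labelled Brg1-reexpressed and 0.692 in the other, and the Y-linked Ddx3y at 3.10 and 7.05 FPKM. The 4 haemoglobin genes took 2.21% of reads in the library labelled Brg1-reexpressed and 0.117% in the other, and the 9 myeloid or dendritic markers summed to 499 and 343 FPKM. Their part in the result was not tested. Without the haemoglobin genes in the total, the median log2 difference was −0.17. Exon lengths behind the FPKM differed between the experiments for H2-K1, Tapbp, Psmb8 and Psmb9, so that levels are not compared across them.

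Genes of the same pathway were followed as lists that hold none of the 10 genes. In mosaic cells no gene of the 8 lists reached 2-fold, against 10.9% of all genes tested. Scaling by the total of reads moved the median of all genes by −0.13 in mosaic and −0.31 in rKO1 cells, and counts under that scaling, added after the data were seen, are given beside those that moved. All 14 other 20S proteasome and assembly genes had higher values in Brg1-sufficient mosaic cells, with a median log2 difference of 0.18, and 12 of 14 in Brg1-reexpressed rKO1 cells, with a median of 0.46. By the total of reads, 8 of 14 (median 0.05) and 12 of 14 (median 0.16) had higher values. The 8 other loading and trimming genes all had higher values in Brg1-reexpressed cells (median 0.55), and none reached 2-fold. By the total of reads 6 of 8 did, with a median of 0.25. Pdia3, a disulfide isomerase of the loading complex named after its values were seen, was 1.85-fold higher there and 1.70-fold higher in Brg1-sufficient mosaic cells. In contrast, 8 of 9 other class I heavy chains above 1 FPKM had lower values in Brg1-sufficient mosaic cells (median −0.50), unlike H2-K1 and H2-D1, and in rKO1 cells 4 were higher and 5 lower (median −0.02). By the total of reads all 9 were lower in both, with medians of −0.63 and −0.31. The 4 proteasome activators all had higher values in both, with medians of 0.21 and 0.19, but by the total of reads 3 of 4 were higher in mosaic and 1 of 4 in rKO1 cells (medians 0.08 and −0.10).

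The list of interferon signalling and class I transactivation, which also holds RFX, NF-Y and NF-kB genes, had no common direction in mosaic cells, with 10 higher and 10 lower, or 6 and 14 by the total of reads. In rKO1 cells, 6 had higher and 13 lower values in Brg1-reexpressed cells (median −0.12). Ifngr2, a chain of the interferon-gamma receptor, was 2.28-fold lower. It was 1 of 19 genes at 2-fold, against 17.8% of all genes tested. By the total of reads, 2 were higher and 17 lower there, 5 of them by 2-fold (median −0.42). Over all genes tested, that scaling gave a median of −0.30, with 652 genes 2-fold higher and 1852 lower. Irf1, an interferon-induced factor that binds class I promoters, was 0.747-fold in mosaic and 1.10-fold in rKO1 cells. Of the 9 interferon-gamma inducible GTPases, 8 had higher values in Brg1-reexpressed rKO1 cells (median 0.55). Iigp1 was 2.25-fold higher, 1 of 9 genes at 2-fold, against 17.8% of all genes tested either way. By the total of reads 7 of 9 were higher (median 0.26) and none reached 2-fold. In mosaic cells 4 were higher and 5 lower.

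Class II presentation genes load peptides taken up from outside the cell. In rKO1 cells 8 of 9 had lower values after Brg1 reexpression (median −0.45) and none passed 2-fold, against 17.8% of all genes tested. By the total of reads 8 of 9 were again lower (median −0.75) and 3 passed 2-fold. Over all genes tested, that scaling gave a median of −0.30, with 652 genes 2-fold higher and 1852 lower. The myeloid or dendritic markers summed to 72.1 FPKM in the Brg1-deleted and 30.4 FPKM in the Brg1-reexpressed library. The B cell marker sum went the other way, from 163 to 716 FPKM, and the plasma cell sum was 280 and 267 FPKM. None of these marker sums was tested for its part in the result. In mosaic cells 6 of 9 had higher values (median 0.22). In aTreg cells 5 of 9 were at least 2-fold higher in the library labelled Brg1-reexpressed and 1 was lower, against 7.09% and 3.56% of all genes, with H2-Ab1 3.09-fold, H2-DMb1 2.89-fold, H2-Aa 2.60-fold and H2-Eb1 2.47-fold higher. These genes are hallmarks of antigen-presenting cells. The myeloid and plasma cell marker sums were also higher in that library, 499 against 343 and 913 against 263 FPKM. Nearly all of the plasma cell sum was Igkc, at 880 against 253 FPKM. The B cell marker sum was lower in that library, 563 against 601 FPKM. The part of these markers in the result was not tested. Ciita, the class II counterpart of Nlrc5, stayed under 1 FPKM in both libraries of all 3 comparisons and was not tested.

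**Figure D5:**
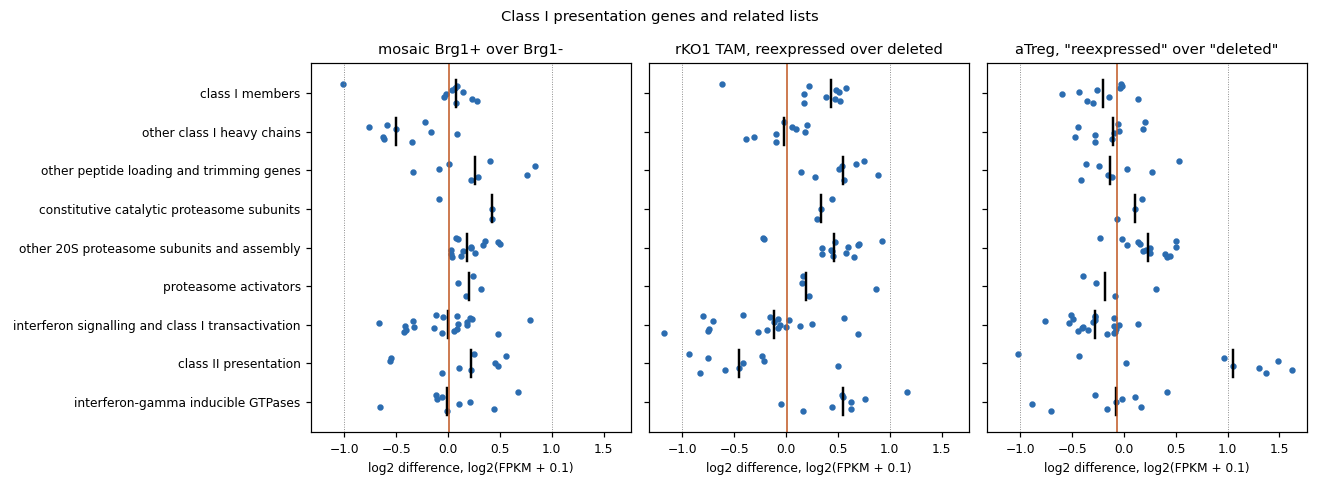
Log2 difference (horizontal axis, log2(FPKM + 0.1)) of each gene with at least 1 FPKM in the 10 class I presentation genes and 8 related lists. Points are genes, black bars are list medians, the orange line is the median of all genes and dotted lines mark 2-fold. The 10 genes have a median of 0.07 in mosaic, 0.43 in rKO1 and −0.20 in aTreg cells.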

How the data were processed

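Per the labels, cDNA was made with the SMART-Seq v4 kit and sequenced with the PE150 strategy on the HiSeq platform. The submitters' processing notes name HISAT2 2.0, StringTie 1.3.3b, featureCounts 1.5.0-p3 and mm10, and the annotation is not given in the sources used here. The authors deposited FPKM values, 1 column per library, for 53465 identifiers. Of these, 53274 were named with GENCODE M21 (GRCm38) and 191 were not. Per the study, WT Treg cells were CD4+CD25+YFP+, mosaic Brg1-sufficient cells YFP− and mosaic Brg1-deleted cells YFP+, and aTreg cells were CD44hi CD62Llo.

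The 10 genes and all lists were chosen with earlier results of these data known. Differences were taken on log2(FPKM + 0.1) for genes with at least 1 FPKM in either library and called at 2-fold, which understates changes of low genes. This covered 9 comparisons of 2 libraries, and the 6 total Treg libraries were also split by Brg1 label. No p-value was computed. Reads were recovered by multiplying FPKM by exon length and by the library total that made values whole within 0.02 reads. This held for 93.4% of 26020 genes in total Treg and 100.0% of 21242 genes in aTreg libraries, and 1557 more genes fitted with another length. Reads served for intervals and scaling alternatives. The named genes were the 10, list genes called in the mosaic, rKO1 TAM or aTreg comparison (at most 4 per list), Irf1, Ciita, Psmb5, Psmb6 and Psmb7, Smarca4 and Foxp3, and the 5 genes most like the mean of the 10. Other names were chosen after their values were seen, and some items are not reported here. Promoters came from RefSeq (GRCm38.p6). Calls, scaling, intervals and read recovery were tested on simulated data. Figures were drawn with matplotlib 3.10.9, and tables were handled with pandas 2.3.3 in Python 3.11.15. NumPy was version 2.4.6, and SciPy, used for the intervals, was 1.17.1.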

Additional observations from a re-analysis of the deposited data

Results flagged for a closer look

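Of the 10 genes, 7 had a ratio above 1 in mosaic or rKO1 cells (Brg1-sufficient or reexpressed over deleted) and below 1 in aTreg cells, with counting intervals on opposite sides of 1. This made 12 such pairs of comparisons, and the difference between them was not tested, since each condition has 1 library. The direction in aTreg cells rests on labels that the Smarca4 level goes against. With those labels exchanged there were 2 such pairs, both of B2m. Under the labels as given, 7 of the 12 pairs kept opposite signs with reads scaled by their total, 9 with the trend with exon length removed, 10 with the median of ratios and 12 with TMM. The 5 pairs that did so in all 4 settings were those of H2-D1 and Tapbp and that of Psmb8 in rKO1 cells. H2-K1 was 1.06-fold in mosaic and 1.13-fold in rKO1 cells against 0.815-fold in aTreg cells. H2-D1 was 1.21-fold and 1.44-fold against 0.780-fold. Tapbp was 1.10-fold and 1.43-fold against 0.741-fold. Psmb8 was 1.03-fold and 1.40-fold against 0.834-fold, and Psmb9 1.05-fold and 1.49-fold against 0.971-fold. In rKO1 cells only, Tap1 was 1.31-fold against 0.907-fold and Tap2 1.13-fold against 0.661-fold.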

How the results depend on the processing

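No paired analysis was possible because each condition has 1 library. Nlrc5 and B2m kept their directions in the mosaic, rKO1 TAM and untreated rKO1 against WT comparisons under every alternative run. The count of genes at 2-fold in mosaic cells went from 1 to 0 with a pseudocount of 1 and to 0 with the trend with exon length removed, where Nlrc5 had log2 differences of −0.95 and −0.94. At 1.5-fold, the count was 1 in rKO1 TAM cells (Nlrc5), 1 in aTreg cells (Tap2), 2 in untreated rKO1 against mosaic Brg1-deleted cells, 1 in TAM-treated against untreated cells, 1 in WT against mosaic Brg1-sufficient cells, 1 in Brg1-reexpressed against WT cells and 2 in Brg1-reexpressed against mosaic Brg1-sufficient cells. The share of all genes at 1.5-fold was not computed, so these counts have no background and are not read as a result. For untreated rKO1 against WT cells the count at 2-fold went from 2 to 1 with reads scaled by their total, where B2m had −0.78. That scaling moved the median of all genes by −0.13 in mosaic, −0.31 in rKO1 TAM and 0.33 in untreated rKO1 against WT cells, and turned the mosaic median of the 10 genes to −0.05. Of 12591 genes in the rKO1 TAM comparison, it called 652 higher and 1852 lower, against 1070 and 1176. The division of the 6 libraries held for 3 or 4 genes under all 5 settings, B2m and Nlrc5 among them each time. Removal of the length trend and of haemoglobin genes, and scaling alternatives for the division, were chosen after the data were seen.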

Other observations

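By Pearson's r of log2 FPKM over the 6 total Treg libraries, the 5 genes most like the mean of the 10 standardised genes, among 1542 candidates, were Gm10108 (r 0.97), Hist1h2an (0.97), Hist1h2ad (0.95), Oaz1-ps (0.94) and Apoo-ps (0.94). They are pseudogenes or members of the histone family, with near-identical copies elsewhere in the genome, so that their values are uncertain, and all were highest in Brg1-reexpressed cells. For Nlrc5 alone, a search added after the data were seen, the most alike genes were Pgghg (0.99), Gm37068 (0.98), Gm47917 (0.98), Fasl (0.98) and A130071D04Rik (0.97). Fasl, the ligand of the Fas death receptor, was at 3.88, 3.77 and 4.15 FPKM in WT, mosaic Brg1-sufficient and Brg1-reexpressed cells and at 9.42, 11.6 and 10.01 FPKM in mosaic, untreated and TAM-treated Brg1-deleted cells. The libraries are not replicates, and the genes were picked for this order.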
